A study of Mus musculus with 12 samples.

Results

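The 10 genes described here encode chaperones and disulfide isomerases of the endoplasmic reticulum (ER) and the transcription factor Xbp1. They were taken by symbol from the 23420 gene symbols of the deposited count tables. All 10 (Hspa5, Hsp90b1, Calr, Canx, Manf, Creld2, Pdia3, Pdia4, Pdia6 and Xbp1) were present in both tables, and all 10 passed the low-count filter in RNA and in footprints. R1 mouse embryonic stem cells, kept on gelatin with the cytokine LIF, were transfected for 48 h with siRNAs against Krr1, a small-subunit ribosome assembly factor, or with control siRNAs. The knockdown libraries are called siKrr1 A, siKrr1 C and siKrr1 D, and the controls siGFP, siNC and Lipo. The labels count Lipo among the controls although its name states no siRNA. The letters of the knockdown libraries could not be tied to the numbers in the sample titles. A portion of each lysate went to RNA-seq and another to ribosome profiling, in which the pieces of mRNA protected by ribosomes (footprints) are sequenced. There were 3 libraries per group and assay and 12 in all.

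Proteins that enter the secretory pathway fold in the ER. The chaperone BiP, the product of Hspa5, binds unfolded chains there, the lectins calnexin and calreticulin hold newly made glycoproteins, and disulfide isomerases form and rearrange disulfide bonds. When unfolded chains accumulate, the membrane sensors IRE1 (Ern1), PERK (Eif2ak3) and ATF6 (Atf6) are activated. ATF6 and the spliced product of Xbp1 then raise the transcription of chaperone genes, while PERK lowers general translation and favours that of Atf4. None of the sensors is among the 10 genes, whose only transcription factor is Xbp1, so the sensors are given further on as separate genes. Gene-level counts do not show the splicing of Xbp1.

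The promoter element through which ATF6 is known to act on chaperone genes, the ER stress element, was looked for on both strands of the RefSeq promoter windows of assembly GRCm38.p6, the build also called mm10. The element was searched as CCAAT, 9 positions of any base, and CCACG. A window runs from 250 bases before to 50 bases after the annotated start of the gene. The table held a window for 9 of the 10 genes, not for Manf. An exact match was present in 6 of these 9, against 39 of 32817 windows overall (0.119%). The shorter variant, ATTGG, 1 position of any base and CCACG, was present in 0 of the 9 (0.0366% of all windows) and TGACGTGG, the core of a further element, in 0 of the 9 (0.676%). All 3 hold the letters CCACG on a strand. That part alone was present in 7 of the 9 windows (32.8% of all), and the part CCAAT in 8 of the 9 (37.4% of all). The absence of these letters says nothing about binding of the factors. The matches are shown as a sequence feature that most of the 10 genes share. Because the element is known from ER chaperone genes, its frequency here is a description and not independent evidence. Sequences read 5′ to 3′ on the strand of the gene, with the 19-base match in capitals. A match on the opposite strand starts with CGTGG. Hspa5 is given from base -150 to base -1 before its start (chr2:34771940-34772089, plus strand), and the others with 20 bases on each side of the match. Their positions are chr10:86705618-86705676 for the match of Hsp90b1 farther from its start and chr10:86705513-86705571 for the nearer (minus strand), chr8:84847055-84847113 for Calr (minus strand), chr11:50325780-50325838 for Canx (minus strand), chr12:17266471-17266529 for Pdia6 (plus strand) and chr15:88819500-88819558 for Creld2 (plus strand).
Hspa5: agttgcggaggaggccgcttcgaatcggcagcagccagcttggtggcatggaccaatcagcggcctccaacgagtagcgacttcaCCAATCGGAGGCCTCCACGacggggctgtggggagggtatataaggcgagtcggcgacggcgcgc
Hsp90b1, farther match: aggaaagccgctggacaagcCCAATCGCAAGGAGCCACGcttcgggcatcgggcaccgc
Hsp90b1, nearer match: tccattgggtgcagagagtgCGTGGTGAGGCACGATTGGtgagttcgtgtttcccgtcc
Calr: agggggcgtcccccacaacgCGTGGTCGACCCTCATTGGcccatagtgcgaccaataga
Canx: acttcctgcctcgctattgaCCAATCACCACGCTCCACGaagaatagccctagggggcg
Pdia6: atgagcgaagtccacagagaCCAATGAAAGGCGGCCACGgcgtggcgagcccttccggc
Creld2: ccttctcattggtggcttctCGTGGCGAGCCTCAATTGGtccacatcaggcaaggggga

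The match of Hspa5 lay nearest to its gene, with its first base at -65, and the farther match of Hsp90b1 lay at -212. Hsp90b1 was the only gene of the 9 with 2 matches, on opposite strands. Pdia3, Pdia4 and Xbp1 held no exact match in the window. Hspa5 and Calr held the element, and so did Canx, whose level pointed up (described below) without being called by edgeR. Whether the element bears on the direction of change was not tested.

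**Figure D1:**
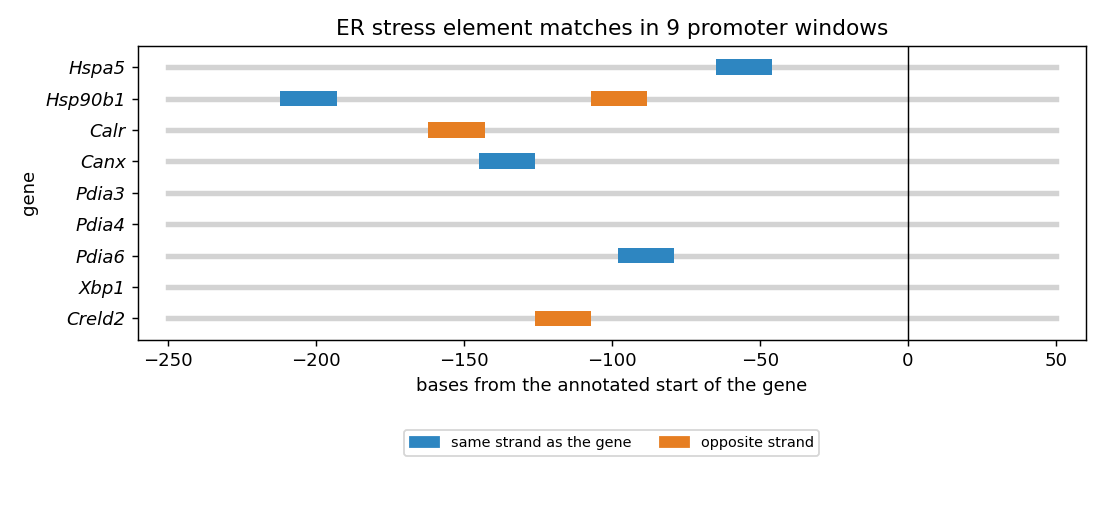
Position of exact ER stress element matches (coloured boxes, 19 bases) in the promoter windows (grey lines, from 250 bases before to 50 after the start) of 9 genes; the x axis is the distance from the annotated start in bases. Matches were present in 6 windows, at first bases from -212 in Hsp90b1 to -65 in Hspa5.

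The 6 RNA libraries held 31318772 to 39670139 reads on genes and the 6 footprint libraries 21615934 to 28911254. The counts behind a value of the 10 genes were between 2725 and 68389 reads in RNA and between 820 and 55548 in footprints. Levels are given as CPM, a count scaled to the TMM-adjusted library total, so that each is a share of its library. They are not per length and are compared only between libraries. In these bulk samples, fewer cells of a type and less RNA per cell cannot be told apart. The labels do not state whether the libraries of a group came from separate cultures, so p-values measure the spread between these samples only. Relative to the controls, siKrr1 A, C and D kept 21.7%, 37.3% and 41.5% of Krr1 RNA and 18.9%, 37.5% and 31.4% of Krr1 footprints. The 8 embryonic stem cell markers summed to 6361 to 7628 CPM in the RNA of knockdown cells and to 7943 to 8059 CPM in control cells, and 3 of the 8 (Esrrb, Nanog and Zfp42) were called lower by edgeR, where 2.11% of all genes were. Of 4 neural markers, edgeR called Tubb3 lower, at 74.9 ± 10.03 RNA CPM in knockdown and 132 ± 6.41 in control cells, and Neurod1 higher, at 4.98 ± 1.28 in knockdown and 1.89 ± 0.38 in control cells (SD, n = 3). Tubb3 made up most of the summed level of this list, and the median log2 fold change of the 4 was 0.27 in RNA and 0.47 in footprints. The part of these marker shifts in the results below was not tested. Of 8 endoderm markers 6 (Gata6, Gata4, Sox17, Foxa2, Afp and Ttr) were below 1 CPM in every RNA library, and the list summed to 5.59 to 5.84 CPM in knockdown and 5.15 to 6.77 CPM in control cells.

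The first question was whether the share of footprints on ER chaperone mRNAs changed after knockdown of Krr1. Footprints of Hspa5, Calr and Manf fell, by 0.24 to 0.32 on the log2 scale, and no gene of the 10 was called higher. With edgeR, 3 of the 10 were called lower and 0 higher at an adjusted p under 0.05, where 2.68% of the 13287 genes tested were called lower and 3.39% higher (6.07% in either direction). At an unadjusted p under 0.05 there were 7 of 10 genes, against 22.5% of all genes. Canx was among them, with a fold change above 0. The median log2 fold change of the 10 was -0.15, with a range from -0.32 to 0.17, against 0.0067 over all genes tested. The 3 knockdown libraries lay below the 3 controls for 6 genes (13.6% of all genes) and above them for 1, Canx (14.3%).

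Hspa5, the gene of BiP, had 982, 1059 and 1030 footprint CPM in siKrr1 A, C and D, against 1211, 1309 and 1301 CPM in siGFP, siNC and Lipo. The highest knockdown library was thus below the lowest control. The group means were 1024 ± 38.6 CPM in knockdown and 1274 ± 54.8 CPM in control cells (SD, n = 3 each). The log2 fold change was -0.32 ± 0.05 (SE; edgeR adjusted p = 0.00907). The call was lost without siNC (edgeR adjusted p = 0.0626) or Lipo (edgeR adjusted p = 0.0709), with fold changes of -0.29 and -0.30, and was kept without each of the other 4 libraries.

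Calr encodes calreticulin, the soluble lectin chaperone of the ER lumen and a store of calcium. It had 1515, 1701 and 1654 footprint CPM in siKrr1 A, C and D, against 2004, 2001 and 1996 CPM in siGFP, siNC and Lipo. The controls averaged 2000.2 ± 3.75 CPM (SD, n = 3), and the knockdown libraries all stood below them. Calr footprints fell by 0.30 ± 0.06 on the log2 scale (SE; edgeR adjusted p = 0.011). The fold change stayed between -0.34 and -0.26 when any library was left out, but the edgeR adjusted p was 0.0592, 0.0655 and 0.0727 without siGFP, siNC and Lipo.

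Manf encodes a small secreted and ER-resident protein that binds BiP and is induced by ER stress. Its footprints were at 126, 140 and 127 CPM in siKrr1 A, C and D, against 157, 157 and 149.9 CPM in siGFP, siNC and Lipo. The groups did not overlap. The log2 fold change was -0.24 ± 0.06 (SE; edgeR adjusted p = 0.0396). This call held only when siKrr1 C was the library left out; the edgeR adjusted p was 0.0671 without siKrr1 A, 0.0888 without siKrr1 D, 0.139 without siGFP, 0.16 without siNC and 0.124 without Lipo.

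Of the other luminal genes, Hsp90b1, the ER member of the Hsp90 chaperones, had 1271, 1395 and 1363 footprint CPM in siKrr1 A, C and D, against 1448, 1589 and 1590 CPM in siGFP, siNC and Lipo. Its groups did not overlap, yet its log2 fold change of -0.20 ± 0.06 (SE) was not called by edgeR (adjusted p = 0.0712), whereas DESeq2 called it (adjusted p = 0.0404). Pdia6, a disulfide isomerase that also acts on IRE1, stood at 385, 417 and 399.9 CPM in siKrr1 A, C and D and at 439, 457 and 457 CPM in siGFP, siNC and Lipo. Its log2 fold change was -0.17 ± 0.05 (SE; edgeR adjusted p = 0.0824). Both were called without siKrr1 C (edgeR adjusted p = 0.0466 for Hsp90b1 and 0.0445 for Pdia6).

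Pdia4, another isomerase of the lumen, showed the same order of groups with a smaller difference, at 557, 590.2 and 558 footprint CPM in siKrr1 A, C and D against 609, 629 and 636 CPM in siGFP, siNC and Lipo (log2 fold change -0.14 ± 0.05, SE; edgeR adjusted p = 0.139). Pdia3, the isomerase that works with calnexin and calreticulin, had 1067, 1035 and 1021 CPM in siKrr1 A, C and D, against 1043, 1077 and 1085 CPM in siGFP, siNC and Lipo. These groups overlapped, and the log2 fold change was -0.04 ± 0.05 (SE; edgeR adjusted p = 0.71). Creld2, an ER protein with EGF-like repeats that is induced by ER stress, overlapped as well, at 74.9, 90.9 and 80.9 CPM in siKrr1 A, C and D and 81.4, 88.3 and 83.2 CPM in siGFP, siNC and Lipo (-0.04 ± 0.08, SE; edgeR adjusted p = 0.838).

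**Figure D2:**
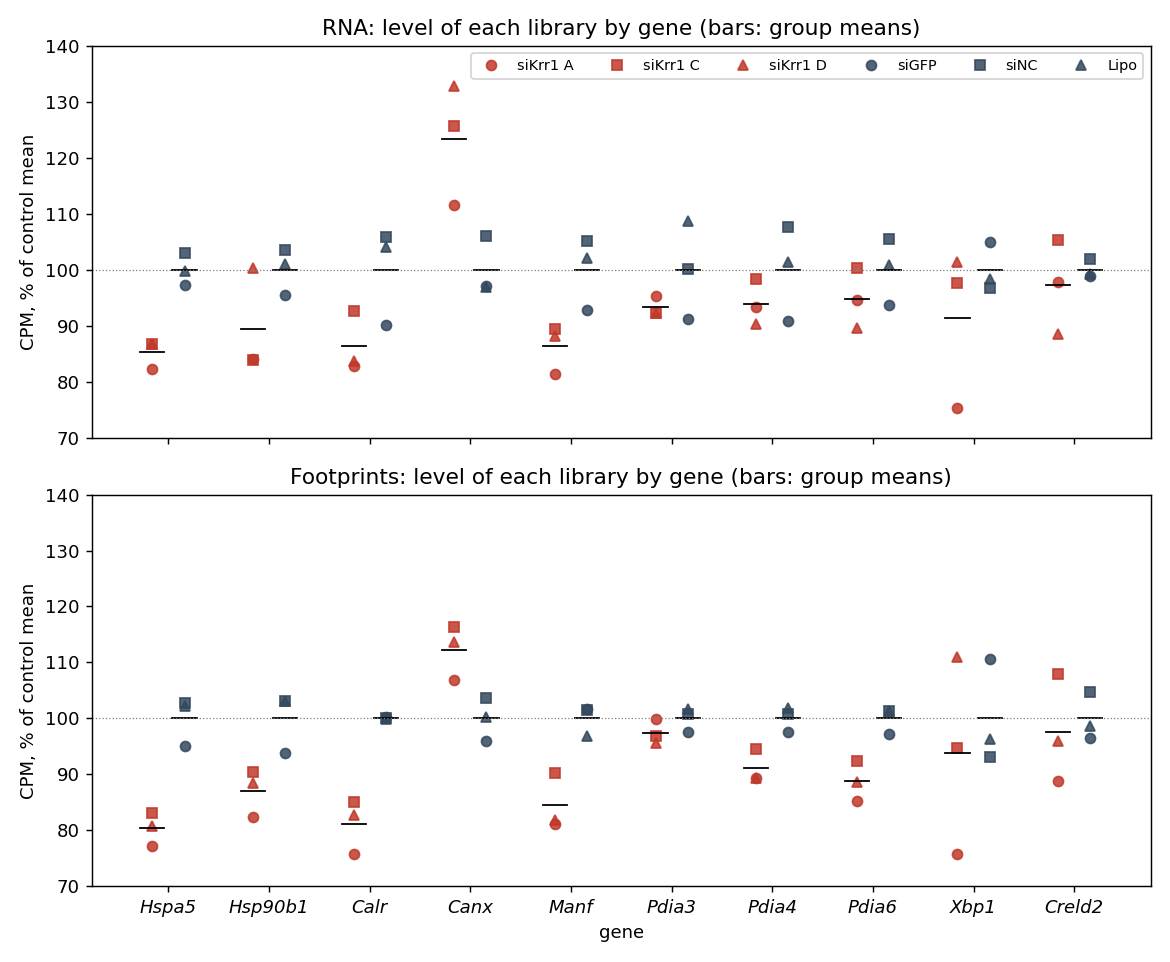
Level of each library as a percentage of the control mean of the gene (y axis, CPM relative to the 3 controls) for 10 genes (x axis) in RNA (top) and footprints (bottom); red symbols are the 3 Krr1 knockdown libraries, dark symbols the 3 controls and black bars the group means. In footprints all 3 knockdown libraries of Hspa5, Hsp90b1, Calr, Manf, Pdia4 and Pdia6 lie below the controls, and those of Canx above them.

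Canx, the gene of the membrane-bound lectin chaperone calnexin, was the only gene of the 10 whose fold change was above 0 in RNA and in footprints. Its RNA was at 663, 747 and 790.05 CPM in siKrr1 A, C and D, against 577, 630.4 and 576 CPM in siGFP, siNC and Lipo. Its footprints were at 957, 1042 and 1018 CPM in siKrr1 A, C and D, against 859.9, 929 and 898 CPM in siGFP, siNC and Lipo. The knockdown libraries lay above all controls in both assays. The log2 fold change was 0.30 ± 0.08 in RNA (SE; edgeR adjusted p = 0.0588) and 0.17 ± 0.05 in footprints (SE; edgeR adjusted p = 0.0997), so that neither passed the threshold with edgeR. In RNA it was called by DESeq2 (adjusted p = 0.0152), by edgeR without a low-count filter (adjusted p = 0.0297) and by edgeR without siKrr1 A (adjusted p = 0.0439). With the other libraries left out in turn, the edgeR adjusted p in RNA lay between 0.0772 and 0.218.

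Calnexin and calreticulin are related lectins with the same glycan preference, one in the membrane and one in the lumen. The CPM of Canx divided by that of Calr, a pair set side by side after their values were seen, gives the contrast within each library. In RNA this quotient was 0.484, 0.487 and 0.570 in siKrr1 A, C and D, against 0.387, 0.360 and 0.334 in siGFP, siNC and Lipo. In footprints it was 0.631, 0.613 and 0.616 in siKrr1 A, C and D, against 0.429, 0.464 and 0.450 in siGFP, siNC and Lipo. Every knockdown library stood above every control in both assays. The mean log2 difference was 0.51 in RNA and 0.47 in footprints. The choice of the pair fixes this separation in footprints, so it is a description with no test.

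**Figure D3:**
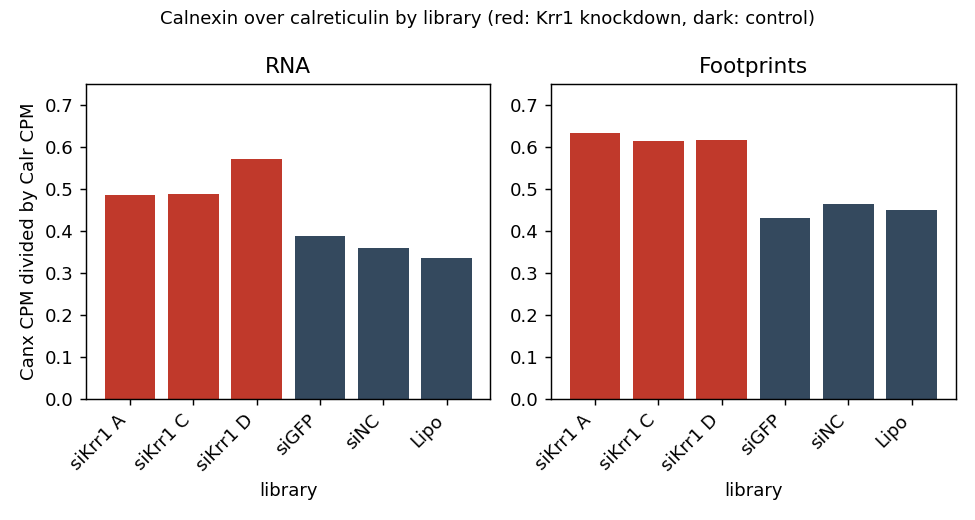
CPM of Canx divided by CPM of Calr in each of the 6 RNA libraries (left) and 6 footprint libraries (right); red bars are Krr1 knockdown, dark bars control, and each bar is 1 library. Knockdown libraries stand at 0.484 to 0.570 in RNA and 0.613 to 0.631 in footprints, above controls at 0.334 to 0.387 and 0.429 to 0.464.

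In RNA 9 of the 10 fold changes were below 0 and that of Canx above it, with the same split in footprints, and no gene was called. Hspa5, Calr and Manf had log2 fold changes of -0.23, -0.21 and -0.21. With edgeR, 0 of the 10 were called, against 4.80% of the 14038 genes tested (2.69% called higher and 2.11% lower). At an unadjusted p under 0.05 there were 4 of 10 (20.9% of all genes), Canx again among them. DESeq2 called 2 of the 10, Hspa5 and Canx, among 1205 genes that it called in all. The median log2 fold change was -0.11, with a range from -0.23 to 0.30, against -0.0012 over all genes tested. The knockdown libraries lay below the controls for 2 genes (13.4% of all genes), Hspa5 and Manf, and above them for Canx (13.6%).

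Hspa5 RNA was at 495, 523 and 523 CPM in siKrr1 A, C and D, against 586, 621 and 601 CPM in siGFP, siNC and Lipo. The groups did not overlap. The log2 fold change was -0.23 ± 0.07 (SE), with an edgeR adjusted p of 0.073 and a DESeq2 adjusted p of 0.0364. Manf RNA was at 179.7, 198 and 195 CPM in siKrr1 A, C and D and at 205, 232 and 226 CPM in siGFP, siNC and Lipo, also without overlap (-0.21 ± 0.07, SE; edgeR adjusted p = 0.128). Calr RNA was at 1370.1, 1535 and 1385 CPM in siKrr1 A, C and D and at 1491, 1752 and 1724 CPM in siGFP, siNC and Lipo. Here siKrr1 C stood above siGFP, and the log2 fold change of -0.21 ± 0.09 (SE) was not called (edgeR adjusted p = 0.184).

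The remaining genes overlapped between the groups in RNA. Hsp90b1 was at 291, 290.2 and 347 CPM in siKrr1 A, C and D and at 330.2, 358 and 349.8 CPM in siGFP, siNC and Lipo, so that siKrr1 D lay within the controls; its log2 fold change was -0.16 ± 0.08 with all libraries and -0.25 without siKrr1 D (edgeR adjusted p = 0.299 and 0.0698). The isomerases Pdia3, Pdia4 and Pdia6 had log2 fold changes of -0.10 ± 0.08, -0.09 ± 0.08 and -0.08 ± 0.07 (SE; edgeR adjusted p = 0.52, 0.57 and 0.613), and Creld2 one of -0.04 ± 0.08 (SE; edgeR adjusted p = 0.814). In siGFP the RNA of 9 of the 10 genes was below the control mean, with a median of -0.08 on the log2 scale, and this library accounted for the lowest control value of Hspa5, Hsp90b1, Calr, Manf and the 3 isomerases.

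**Figure D4:**
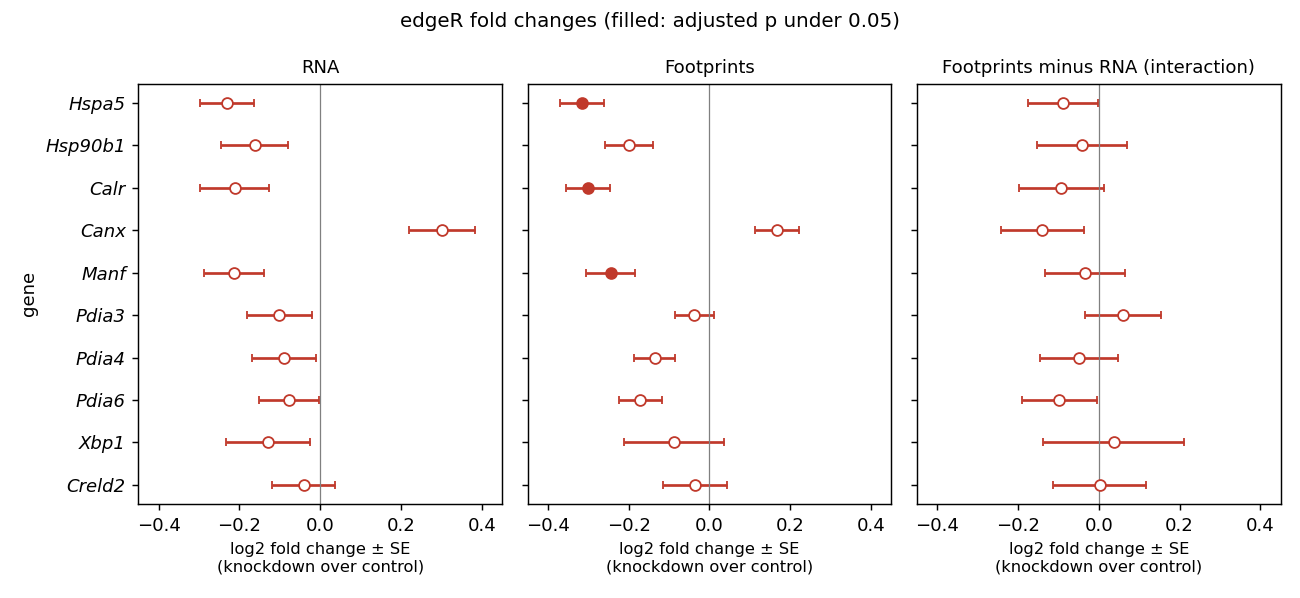
edgeR log2 fold change of knockdown over control with its SE (x axis) for the 10 genes (y axis) in RNA, in footprints and as the interaction of assay and condition; filled symbols passed an adjusted p under 0.05. Hspa5, Calr and Manf are filled in footprints, Canx is the only gene above 0 in RNA and in footprints, and no interaction is filled.

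Xbp1, the transcription factor of the IRE1 branch, varied among the knockdown libraries. Its RNA was at 92.1, 119 and 124 CPM in siKrr1 A, C and D, against 128, 118 and 120.2 CPM in siGFP, siNC and Lipo. Its footprints were at 37.8, 47.3 and 55.5 CPM in siKrr1 A, C and D, against 55.2, 46.5 and 48.1 CPM in siGFP, siNC and Lipo. In both assays siKrr1 A was the lowest library, while siKrr1 C and D lay within or close to the controls. The log2 fold change was -0.13 ± 0.10 in RNA and -0.09 ± 0.12 in footprints (SE; edgeR adjusted p = 0.53 and 0.732). Without siKrr1 A it was -0.0065 in RNA and 0.04 in footprints.

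The low value of siKrr1 A was shared by most of the 10 genes in footprints. Among the 3 knockdown libraries, siKrr1 A had the lowest footprint level for 9 genes, Pdia3 being the exception, and siKrr1 C the highest for 8. The share of all genes with this order was not counted. Taken over the 10 genes, the median footprint level relative to the controls was 83.8% for siKrr1 A, 93.5% for siKrr1 C and 89.0% for siKrr1 D. In RNA the medians were 88.7%, 95.1% and 89.9%, and siKrr1 A was the lowest for 5 genes, siKrr1 D for 3 and siKrr1 C for 2. Over 6117 genes averaging 20 CPM or more in each assay, the median log2 footprint deviation from the controls was -0.0016, 0.0055 and -0.025 in siKrr1 A, C and D. Krr1 itself was lowest in siKrr1 A, as given above; with 3 knockdown lysates this order was not tested.

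Whether the footprints changed beyond the RNA was asked with the interaction of assay and condition, the change in translational efficiency. None of the 10 genes was called (0 of 10 with edgeR, 0 at an unadjusted p under 0.05 and 0 with DESeq2), in a comparison where 0% of the 14236 genes tested were called by edgeR and 2.37% had an unadjusted p under 0.05. The interaction log2 fold changes of the 10 ran from -0.14 to 0.06, with a median of -0.04 against 0.00054 over all genes tested. For Hspa5 it was -0.09 ± 0.09, for Calr -0.09 ± 0.11 and for Canx -0.14 ± 0.10 (SE; edgeR adjusted p = 0.9999 for each). This fit does not use the pairing of the assays by lysate. With the lysate as a block the SEs of Hspa5, Calr and Canx were 0.057, 0.063 and 0.063 (edgeR adjusted p = 0.818, 0.819 and 0.729). The footprint to RNA ratios of the knockdown lysates were below those of all controls for 2 genes, Hspa5 and Canx (5.33% of all genes), and above them for 0 (6.78% of all genes). For Hspa5 the ratio was 1.98, 2.03 and 1.97 in siKrr1 A, C and D, against 2.07, 2.11 and 2.17 in siGFP, siNC and Lipo. For Canx it was 1.44, 1.395 and 1.29 in siKrr1 A, C and D, against 1.49, 1.47 and 1.56 in siGFP, siNC and Lipo.

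The footprint to RNA ratio differed widely among the 10 genes and little between lysates. It takes no account of which part of an mRNA each assay covers. Ranks of genes by this ratio are thus descriptive and not rates of translation. In control cells the median gene had a ratio of 0.865. Pdia3 had a ratio of 12.1 ± 0.0976 in knockdown and 11.7 ± 0.787 in control cells (SD, n = 3), the rank 53 from the top among 14169 genes. Hsp90b1 followed with 4.37 ± 0.44 in knockdown and 4.46 ± 0.0834 in control cells, rank 319. At the other end Xbp1 had 0.418 ± 0.0263 in knockdown and 0.408 ± 0.0198 in control cells, rank 12188 from the top. Manf (0.685 ± 0.0304 in knockdown, 0.702 ± 0.0554 in control cells) and Creld2 (0.604 ± 0.0544 in knockdown, 0.600 ± 0.0152 in control cells) were also below the median gene. The RNA level behind the ratio of Pdia3 was at 87.6, 84.7 and 84.8 CPM in siKrr1 A, C and D and at 83.9, 92 and 99.9 CPM in siGFP, siNC and Lipo. Its annotated span overlaps Catsper2, as that of Hspa5 overlaps Rabepk, that of Pdia6 Atp6v1c2 and that of Pdia4 the microRNA gene Mir704. The strand setting of the counting is not given in the sources used here. Whether reads in these overlaps were counted or set aside as ambiguous is therefore not known. Per library, ambiguous reads made up 0.187% to 0.206% of unique alignments in RNA and 0.0649% to 0.0725% in footprints. The part of the overlaps in these values was not tested.

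**Figure D5:**
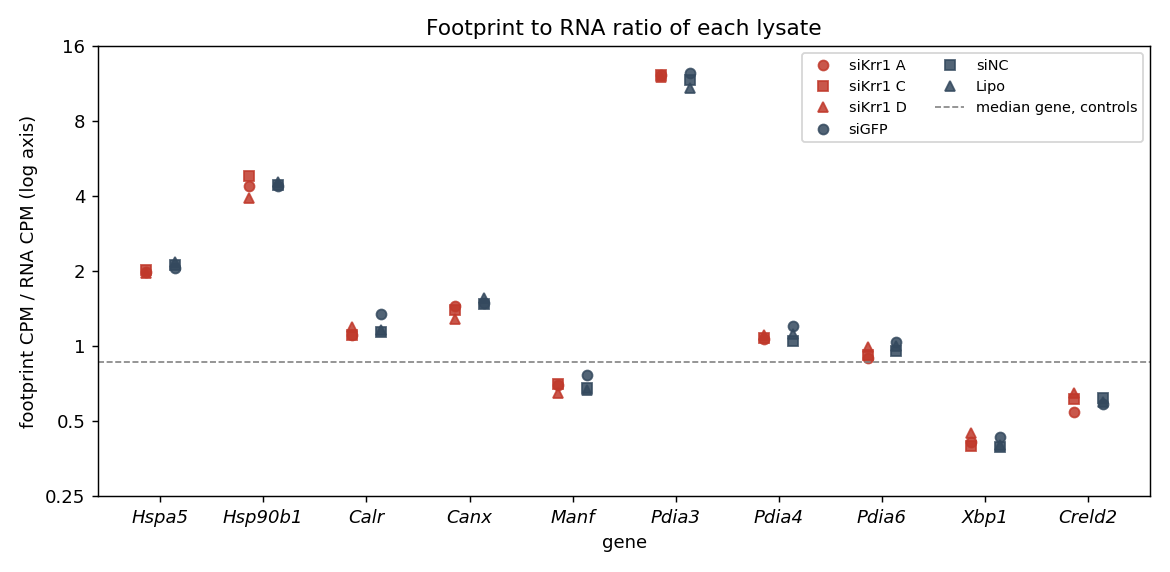
Footprint CPM divided by RNA CPM of each lysate (y axis, log scale) for the 10 genes (x axis); red symbols are Krr1 knockdown lysates, dark symbols controls, and the dashed line is the median gene of the controls at 0.865. Ratios run from about 0.4 for Xbp1 to about 12 for Pdia3, and the lysates of a gene lie close together.

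The sensors themselves did not pass the test in either assay. Ern1 (IRE1) had 8.68 ± 0.959 RNA CPM in knockdown and 7.81 ± 0.493 in control cells, Eif2ak3 (PERK) 21.7 ± 2.22 in knockdown and 23.4 ± 1.2 in control cells, and Atf6 45 ± 4.07 in knockdown and 43.6 ± 2.17 in control cells (SD, n = 3 each). Their log2 fold changes were 0.15, -0.10 and 0.05 in RNA (edgeR adjusted p = 0.57, 0.628 and 0.814) and 0.23, -0.02 and 0.06 in footprints (edgeR adjusted p = 0.471, 0.946 and 0.763). Of the 6 sensors and proteases that activate ATF6, 0 were called by edgeR in RNA (0 by DESeq2 and 0 at an unadjusted p under 0.05), and 0 in footprints (1 by DESeq2 and 1 at an unadjusted p under 0.05). The smallest p in this list was that of the protease gene Mbtps2, with a footprint log2 fold change of 0.55 ± 0.16 (SE; edgeR adjusted p = 0.063). Atf6b and the protease gene Mbtps1 stood at -0.13 and -0.11 in footprints. Atf6b RNA was at 22.0, 30.69 and 28.5 CPM in siKrr1 A, C and D, against 34.5, 30.80 and 31.7 CPM in siGFP, siNC and Lipo. All knockdown libraries were thus below all controls, as for 13.4% of all genes, and edgeR did not call this change.

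Among 19 BiP cofactors and other ER chaperones outside the 10 genes, 2 rose in RNA and 0 fell, and 2 of 18 tested rose and 0 fell in footprints. Over all genes tested edgeR called 2.69% higher in RNA and 3.39% higher in footprints. DESeq2 called 5 of the list in RNA and 2 in footprints, of 1205 and 1143 genes called in all. Both genes called by edgeR serve collagen folding. Serpinh1, the collagen chaperone, had 67.8 ± 8.33 RNA CPM in knockdown and 40.6 ± 1.5 in control cells (SD, n = 3), a log2 fold change of 0.74 ± 0.10 (SE; edgeR adjusted p = 0.00392), and rose by 0.64 ± 0.10 in footprints (edgeR adjusted p = 0.00595). Fkbp10, a collagen prolyl isomerase, rose by 0.57 ± 0.09 in RNA and 0.58 ± 0.10 in footprints (SE; edgeR adjusted p = 0.0081 and 0.00819). Leaving out Lipo ended both calls of Fkbp10 (edgeR adjusted p = 0.0511 in RNA and 0.0629 in footprints) and the footprint call of Serpinh1 (0.0502). Fkbp9 was at 0.24 ± 0.07 in RNA (SE; edgeR adjusted p = 0.0725). Of 8 fibroblast markers, 6 (Col1a1, Col1a2, Col3a1, Postn, Lum and Dcn) were below 1 CPM in every RNA library, and the list summed to 4.44 to 9.1 CPM in knockdown and 7.84 to 8.94 CPM in control cells. The median log2 fold change of this chaperone list was 0.06 in RNA and 0.05 in footprints.

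None of 15 further disulfide isomerases and ER oxidases was called by edgeR in either assay. An unadjusted p under 0.05 was reached by 1 in RNA and 3 in footprints, against 20.9% and 22.5% of all genes, and DESeq2 called 0 in each. These counts do not exceed the share over all genes. The peroxiredoxin Prdx4 was at 0.22 in RNA, Tmx4 at 0.42 in footprints and P4hb, the main protein disulfide isomerase, at -0.14 in footprints (log2 fold changes; edgeR adjusted p = 0.12, 0.158 and 0.182). Of 9 genes of the calnexin cycle and glycan trimming 0 were called by edgeR in either assay, while DESeq2 called 0 in RNA and 1 in footprints. An unadjusted p under 0.05 was reached by 0 of them in RNA and by 2 in footprints. The cargo lectin Lman2 had a footprint log2 fold change of -0.23 ± 0.06 (SE; edgeR adjusted p = 0.0558), Uggt2, a sensor of glycoprotein folding, one of 0.47, and the trimming glucosidase Mogs an RNA log2 fold change of 0.13. Of 16 genes of the translocon and signal peptidase 0 were called in either assay by edgeR or DESeq2, with 2 at an unadjusted p under 0.05 in each. The translocon-associated Ssr2 had a footprint log2 fold change of -0.19 (edgeR adjusted p = 0.103), the receptor subunit Srprb one of -0.16 (0.16), and Ssr4 an RNA log2 fold change of -0.21 (0.173).

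Of 20 genes of ER-associated degradation, which returns misfolded proteins to the cytosol, 2 rose and 1 fell in RNA, and 1 fell in footprints. Over all genes edgeR called 4.80% in RNA and 6.07% in footprints, so the footprint count is no more than the list's size gives at that share. Herpud1, a membrane component of the degradation complex, was at 28.4 ± 2.42 footprint CPM in knockdown and 45.4 ± 1.44 in control cells (SD, n = 3). It fell by 0.67 ± 0.08 on the log2 scale (SE; edgeR adjusted p = 0.00201), a call kept with each library left out, and by 0.65 ± 0.08 in RNA. The adaptor gene Faf2 rose in RNA by 0.35 ± 0.07 (SE; edgeR adjusted p = 0.018). Its call was lost when any control was left out, with the highest edgeR adjusted p without Lipo (0.105). In footprints Faf2 had a log2 fold change of 0.27 ± 0.07 (SE; edgeR adjusted p = 0.0527).

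Of 6 targets of the PERK branch, 3 fell and none rose in RNA and in footprints alike, namely Atf4, Chac1 and Trib3, where 2.11% of all genes fell in RNA and 2.68% in footprints. In footprints the transcription factor Atf4 fell by 0.62 ± 0.09, the glutathione-degrading enzyme Chac1 by 0.83 ± 0.15 and the pseudokinase Trib3 by 0.49 ± 0.09 (SE; edgeR adjusted p = 0.00346, 0.0109 and 0.0127). The footprint call of Atf4 was kept with each library left out. That of Chac1 was lost without siNC or Lipo and that of Trib3 without siGFP or Lipo, reaching 0.0757 and 0.0845 (edgeR adjusted p) in the fits that left out Lipo. In RNA the log2 fold changes were -0.43 for Atf4, -0.88 for Chac1 and -0.42 for Trib3 (edgeR adjusted p = 0.0135, 0.0295 and 0.026). The RNA calls of Chac1 and Trib3 were lost without siKrr1 A or any control, and that of Atf4 without siNC or Lipo, with the highest edgeR adjusted p at 0.123 for Chac1, 0.123 for Trib3 and 0.0778 for Atf4. Ddit3 (CHOP), chosen after its values were seen, had 3.05 ± 0.511 footprint CPM in knockdown and 2.6 ± 0.382 in control cells (SD, n = 3; log2 fold change 0.24 ± 0.21, SE; edgeR adjusted p = 0.571). This list was chosen with results of these samples known, so its direction is not independent evidence. The name of the list does not tie these changes to PERK, whose part in them was not tested.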

How the data were processed

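R1 mouse embryonic stem cells were profiled by sequencing of RNA pieces (40 to 60 nt) and of ribosome footprints (about 30 nt), per the labels' protocols. The authors deposited 1 table of counts for each assay, with whole reads by gene symbol and no normalization; STAR, HTSeq and mm10 are named in the submitters' processing notes, with versions not given in the sources used here. Reads on no feature (31.2% to 33.4% of unique alignments in RNA, 57.5% to 63.3% in footprints) entered neither the library sizes nor the tests.

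Genes kept by filterByExpr were compared by edgeR's quasi-likelihood F test under TMM scaling (version 4.0.16 of edgeR and 3.58.1 of limma, in R 4.3.3), each assay fitted alone and all 12 libraries together for translational efficiency. Benjamini-Hochberg adjustment ran over all genes tested, calls were made at an adjusted p under 0.05, and SEs were taken from the F statistic. DESeq2 1.42.0, other size factors, no filter, a lysate block and each library left out were the alternatives. The fits were tested on simulated data. The assays of a lysate are paired, since per the labels each lysate was divided: deviations from group means correlated with r of 0.265 to 0.712 over 6117 genes. No 2 libraries of a group were duplicates (chi-square per degree of freedom at least 4.03).

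Named genes are the 10 members, the sensors, up to 3 genes of each other list with the smallest p, Krr1, and the 3 genes closest to Hspa5 in pattern. The members and lists were chosen with earlier results of these data known. Of 23420 symbols, 23280 matched the reference table. A result that the rule for named genes selects is not reported here.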

Additional observations from a re-analysis of the deposited data

How the results depend on the processing

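The number of genes called in RNA was 674; it was 1059 without a low-count filter and 1205 with DESeq2, and between 114 and 1298 with a library left out. In footprints it was 806, with 1400 without a filter and 131 to 1337 with a library left out. Of the 10 ER genes, 0 were called in RNA, 1 without a filter (Canx), 2 with DESeq2 (Canx and Hspa5) and 0 to 1 with a library left out. In footprints 3 were called, and 0 to 5 with a library left out. For translational efficiency 0 genes were called by edgeR (337 at an unadjusted p under 0.05), 2 without a filter, 2 with DESeq2 and 0 to 1 with a lysate left out. With the lysate as a block, which uses the pairing of the assays, 6 genes were called for translational efficiency and 0 of the 10 ER genes. DESeq2-type size factors moved the median log2 fold change of all genes by 0.0018 in RNA and -0.0049 in footprints and changed no call of the 10 genes.

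Uncalled fold changes near 0 changed sign with a library left out. Creld2 ran from -0.095 to 0.030 in RNA and from -0.11 to 0.023 in footprints, and Xbp1 from -0.23 to 0.041 in footprints. In translational efficiency Creld2 ran from -0.045 to 0.069 (-0.0018 without a filter), Hsp90b1 from -0.12 to 0.044, Manf from -0.068 to 0.019 and Xbp1 from -0.017 to 0.071. The cause was not tested.

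The smallest count behind a value of the 10 genes was 820 reads. With 3 libraries per group, differences of the size seen here (a footprint log2 fold change of -0.32 for Hspa5) were called with 6 libraries and not in each fit with 5.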

Other observations

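The genes whose level followed that of Hspa5 most closely were not ER chaperones. Over the 12 libraries, each taken as log2 deviation from the control mean of its assay, Shmt2 (mitochondrial serine hydroxymethyltransferase) differed from Hspa5 by a root mean square of 0.0429, Adnp2 by 0.0496 and Mcm4, a subunit of the replicative helicase, by 0.0557, against a median of 0.217 over the 6116 genes that averaged 20 CPM or more in each assay. The 12 values share their libraries and depth, and the likeness is a description. Of the other ER genes, Calr ranked 7 and Manf 9 by this measure, Hsp90b1 ranked 88 and Canx 5543. Shmt2 had 343 ± 7.72 footprint CPM in knockdown and 425 ± 21.7 in control cells (SD, n = 3), a log2 fold change of -0.31 ± 0.06 (SE). It was picked for its likeness to Hspa5 in these same values. Its fall is therefore set by the choice, and no test of it is given.

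Outside the 10 genes, promoter windows of 31 other gene symbols held an exact ER stress element match. Of these, 11 passed the filter, 1 fell and 0 rose with edgeR in RNA and in footprints, a count of 1 that is close to the share called over all genes (4.80% in RNA and 6.07% in footprints). The median log2 fold change was -0.04 in RNA and -0.12 in footprints. DESeq2 called 1 of them in each assay. The gene that fell was Zfp57, a zinc-finger protein that keeps imprinted regions methylated, at 509.9 ± 51.4 footprint CPM in knockdown and 728 ± 57 in control cells (SD, n = 3; log2 fold change -0.51 ± 0.08, SE; edgeR adjusted p = 0.00595). It was named after its values were seen. Syvn1, the main ubiquitin ligase of ER-associated degradation, and Alg12, an ER mannosyltransferase whose window holds the same match as that of its neighbour Creld2, were among the 11, with footprint log2 fold changes of 0.03 and 0.01 (edgeR adjusted p = 0.865 and 0.96), likewise named after their values were seen.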
